A study of Homo sapiens with 3 samples.

Results

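The genes described here code for SR proteins, hnRNP proteins and the proteins that recognise the branch point and the 3′ splice site of an intron. They were chosen by symbol, and 52 of the 43913 gene symbols in the count tables met the rule. Of these, 12 symbols begin with SRSF, 23 begin with HNRNP, and 17 were listed by name, namely SF3A1, SF3A2, SF3A3, SF3B1 to SF3B6, U2AF1, U2AF2, TRA2A, TRA2B, PTBP1, RBM39, SRRM1 and SRRM2. Symbols of pseudogenes were left out (117 symbols), and no antisense gene carried such a name. All 52 members are listed in both monoculture tables and 50 in the coculture table, where HNRNPCL1 and HNRNPUL2-BSCL2 do not appear.

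The study concerned the NF-κB response of multiple myeloma cells and how contact with bone marrow stromal cells shapes it, and RNA of single cells was profiled to see what coculture does to transcription in both lines. MM.1S is a multiple myeloma cell line and HS-5 is a bone marrow stromal cell line, and both are established lines. Each line grown alone, and both lines grown together for 4 h, were sequenced as 1 Drop-seq library apiece without any other treatment. Drop-seq captures single cells in droplets with barcoded beads and counts each captured RNA molecule by its unique molecular identifier (UMI). Coculture cells were assigned to a line by the 82 genes particular to MM.1S and the 231 genes particular to HS-5, which gave 4 groups of cells: 3947 MM.1S cells from monoculture, 1647 MM.1S cells from coculture, 3732 HS-5 cells from monoculture and 2108 HS-5 cells from coculture. Members of the list took no part in that assignment. With 1 library per condition there is no replicate check of any difference between conditions, no test was made, and every interval given here is a 95% interval that covers counting error only.

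SR proteins bind short enhancer motifs in exons through RNA recognition motifs, and their arginine-serine-rich tails recruit the splicing machinery. The hnRNP proteins coat nascent transcripts, often oppose SR proteins at silencer motifs, and also act in RNA stability, export and packaging. U2AF binds the polypyrimidine tract and the end of the intron, after which the SF3A and SF3B complexes anchor the U2 snRNP at the branch point. Myeloma cells make large amounts of secreted immunoglobulin, and splicing factor genes, SF3B1 among them, are known targets of mutation in blood cancers. UMI counts per gene give the amount of RNA relative to all RNA captured, and they show neither protein levels nor which exons were joined.

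The promoters of 4 members are printed because the results turn on these genes: HNRNPAB and HNRNPD had the highest ratios of coculture to monoculture in MM.1S cells among members that averaged 50 UMIs per 1000000 or more, HNRNPDL is the paralogue of HNRNPD and did not follow it, and PTBP1 was the sole member called in opposite directions in the lines. Windows of 300 bases (250 before and 50 after the start of the gene) come from RefSeq on GRCh38.p14, which had a window for 47 of the 52 members. The capitals mark the TATA box word TATAAA, the CCAAT box word CCAAT, the GC box word GGGCGG and the ETS word CCGGAAG, each searched on both strands, and no marked words overlap in these windows. The HNRNPAB window lies at chr5:178204283-178204582 on the + strand, the HNRNPD window at chr4:82373942-82374241 on the - strand, the HNRNPDL window at chr4:82430176-82430475 on the - strand, and the PTBP1 window at chr19:797202-797501 on the + strand.
HNRNPAB: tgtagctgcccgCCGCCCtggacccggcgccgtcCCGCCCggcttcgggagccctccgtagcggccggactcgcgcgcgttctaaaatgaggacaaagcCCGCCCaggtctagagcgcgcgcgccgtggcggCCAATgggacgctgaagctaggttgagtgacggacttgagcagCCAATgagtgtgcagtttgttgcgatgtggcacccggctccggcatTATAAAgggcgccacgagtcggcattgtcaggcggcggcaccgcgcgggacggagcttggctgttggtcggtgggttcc
HNRNPD: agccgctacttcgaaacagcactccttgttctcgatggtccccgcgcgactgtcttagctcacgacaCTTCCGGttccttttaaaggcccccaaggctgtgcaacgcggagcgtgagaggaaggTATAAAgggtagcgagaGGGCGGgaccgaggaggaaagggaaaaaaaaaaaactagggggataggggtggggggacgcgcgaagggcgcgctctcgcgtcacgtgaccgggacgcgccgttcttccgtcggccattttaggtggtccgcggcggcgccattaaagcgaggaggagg
HNRNPDL: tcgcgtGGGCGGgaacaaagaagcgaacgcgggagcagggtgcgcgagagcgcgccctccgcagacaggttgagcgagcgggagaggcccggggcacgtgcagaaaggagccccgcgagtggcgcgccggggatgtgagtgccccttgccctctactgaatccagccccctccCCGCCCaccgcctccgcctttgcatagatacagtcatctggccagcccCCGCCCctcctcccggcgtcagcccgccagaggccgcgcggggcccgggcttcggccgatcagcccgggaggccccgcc
PTBP1: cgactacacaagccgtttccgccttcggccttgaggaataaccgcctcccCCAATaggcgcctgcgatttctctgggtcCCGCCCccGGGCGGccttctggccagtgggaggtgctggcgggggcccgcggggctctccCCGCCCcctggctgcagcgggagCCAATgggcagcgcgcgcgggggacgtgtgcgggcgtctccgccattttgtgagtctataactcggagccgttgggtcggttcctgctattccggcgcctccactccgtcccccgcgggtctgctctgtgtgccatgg

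TATAAA was found in the windows of HNRNPAB and HNRNPD but not in those of HNRNPDL and PTBP1. Among all members, 5 of 47 windows (10.6%) held TATAAA, namely those of HNRNPAB, HNRNPC, HNRNPD, SRSF3 and SRSF11. The word was in 12% of all 27305 promoter windows and in 9.48% of those of genes in the count tables. In MM.1S cells the log2 ratios of HNRNPC, SRSF3 and SRSF11 were 0.02, 0.37 and 0.56, none of them called. The GC box word was in 33 member windows (70.2%, against 44.6% of all), the CCAAT word in 20 (42.6%, against 35.7%) and the ETS word in 12 (25.5%, against 10.7%). The median member window held 30 CpG dinucleotides, beside 14 over all windows and 21 over the 16241 windows of genes in the count tables. Among the windows of genes in the count tables, 56.3% held the GC box word and 13.6% the ETS word. These matches describe letters in a window and do not show that a factor binds there.

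The groups differed in depth. The summed UMIs were 10433017 in MM.1S monoculture cells, 1330285 in MM.1S coculture cells, 6142273 in HS-5 monoculture cells and 2483131 in HS-5 coculture cells, and the medians per cell were 2201, 668, 971.5 and 957. UMIs of ribosomal protein genes made up 18.8% and 12% of those of MM.1S cells in monoculture and coculture, and 7.54% and 8.64% of those of HS-5 cells. Mitochondrial UMIs were 6.82%, 4.05%, 2.79% and 2.23% in the same order of groups. The 101 coculture cells (2.62%) of mixed line were left out, and free RNA of the other line came to an estimated 1.72% of the UMIs of MM.1S coculture cells and 0.798% of those of HS-5 coculture cells. Of the 3994, 3865 and 3963 cell barcodes in the MM.1S, HS-5 and coculture tables, the coculture shared 39 with MM.1S and 76 with HS-5 monoculture, and the monocultures shared 44. JCHAIN, the joining chain of secreted immunoglobulin, stood at 6664 and 4138 CPM (UMIs per 1000000) in MM.1S cells and at most 30.6 CPM in HS-5 cells, while COL1A1, a fibroblast collagen, stood at 498 and 613 CPM in HS-5 cells and at most 8.27 CPM in MM.1S cells. Other markers of the lists went against their line: SDC1 was at 38.1 CPM in MM.1S and 135 CPM in HS-5 monoculture, FN1 was at 810 and 252 CPM, and CD79A and CD27 were at most 0.651 CPM in every group.

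Taken as a set, the splicing factor genes held a larger share of the RNA of MM.1S cells in coculture than in monoculture. Members made up 0.945% of UMIs (0.939 to 0.951%) in MM.1S monoculture cells and 1.46% (1.44 to 1.48%) in MM.1S coculture cells. In HS-5 cells they made up 1.54% (1.53 to 1.55%) in monoculture and 1.53% (1.51 to 1.54%) in coculture. With ribosomal protein and mitochondrial UMIs taken out of the total, the shares were 1.27% and 1.74% in MM.1S cells and 1.71% and 1.72% in HS-5 cells. The MM.1S difference was present among cells of like depth: in cells with 1000 to 2000 UMIs the share was 0.843% (0.832 to 0.855%) in 1602 monoculture cells and 1.53% (1.49 to 1.57%) in 328 coculture cells. In cells with 500 to 1000 UMIs it was 0.808% (0.744 to 0.876%) in 77 monoculture cells and 1.43% (1.40 to 1.46%) in 821 coculture cells.

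Members were also counted per cell, which describes the same UMIs again and is no independent support. After each cell was thinned to 500 UMIs, a mean of 4.16 members (SD 2.03 over 3947 cells) was detected per MM.1S monoculture cell and 6.21 (SD 2.33 over 1199 cells) per MM.1S coculture cell. The means differed but the cells overlapped, with 0 to 12 members in MM.1S monoculture cells and 0 to 15 in MM.1S coculture cells. HS-5 cells had means of 6.57 (SD 2.34 over 3515 cells) in monoculture and 6.59 (SD 2.32 over 1808 cells) in coculture. Cells below 500 UMIs were left out of these values, 0, 448, 217 and 300 cells in the 4 groups. At this depth 1.57% of MM.1S monoculture cells held no UMI of any member, against 0.0834% of MM.1S coculture cells. The variance of the summed member UMIs over their mean was 1.21, 1.25, 1.20 and 1.12 in MM.1S monoculture, MM.1S coculture, HS-5 monoculture and HS-5 coculture cells, where random sampling of UMIs alone gives 1. For single members the median of this ratio was 1.02, 1.03, 1.03 and 1.01, beside 1.02, 1.04, 1.03 and 1.03 for all genes of like level.

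In MM.1S cells the members were compared between coculture and monoculture as the log2 ratio of CPM + 1, for genes that averaged 50 CPM or more across the 2 groups. A gene was called higher or lower where it differed at least 1.5-fold (0.58 on the log2 scale). Of the 39 members that passed, 15 (38.5%) were called higher, against 30.3% of the 3023 genes tested, and 0 were called lower, against 13.5% of genes. The median log2 ratio of members was 0.53 (medians of the members' lower and upper bounds 0.36 and 0.66), and that of all genes was 0.18. The ratio was above 0 for 33 of the 39 members, and the counting interval lay above 0 for 29, below 0 for 4 and held 0 for 6.

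Relative to the median of all genes the members stood 0.35 higher on the log2 scale, with 11 of 39 called higher and 2 lower. On that scale 23.5% of all genes were higher and 20.5% lower. A scaling factor shifts every gene of a group by about the same amount, so it leaves this distance nearly as it is by construction. With the trend of ratios over transcript length taken out the distance was 0.20. The ratios themselves depended on the scaling: with edgeR TMM factors the median of all genes was -0.35 and that of members 0.00. Under these factors 7 members were higher and 6 lower, beside 14% and 37.3% of all genes, and 19 of 39 stood above 0. Without ribosomal protein and mitochondrial UMIs the members' median was 0.37, with 13 of 43 members higher and 1 lower, beside 24.1% and 20% of all genes. The median of all genes was then 0.01. In HS-5 cells no such shift was seen (median of all genes -0.02 on the CPM scale).

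**Figure D1:**
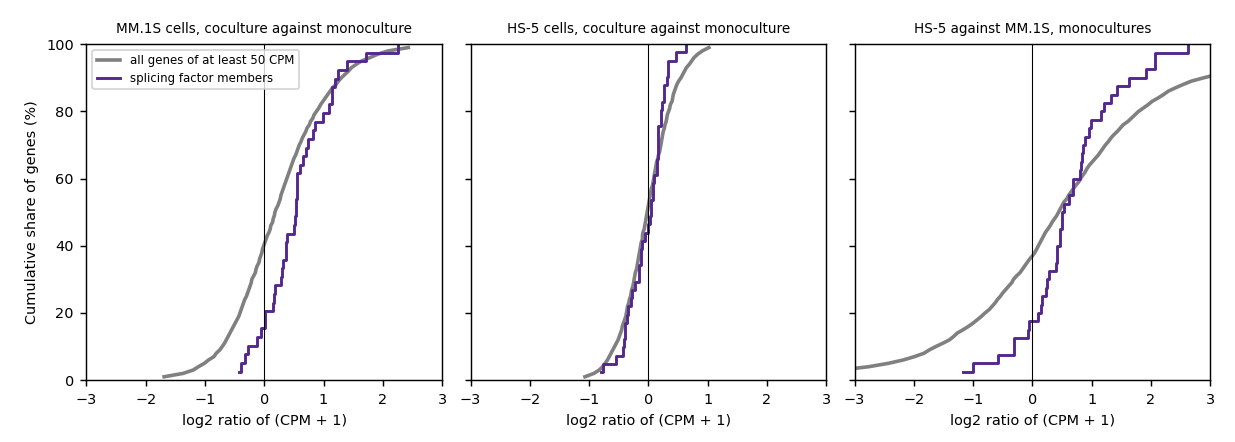
Cumulative share of genes (%, vertical axis) by log2 ratio of CPM + 1 (horizontal axis) for splicing factor genes (purple steps) and all genes that averaged 50 CPM or more (grey line, percentiles 1 to 99) in the 3 comparisons. In MM.1S cells the members' curve lies to the right of all genes through the middle of its range (medians 0.53 and 0.18 on the CPM scale), in HS-5 cells the medians are 0.04 and -0.02, and between the monocultures members keep to a narrower range than all genes.

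Of the 12 SR protein genes 10 passed in MM.1S cells, and 2 of them were called higher and 0 lower, beside 30.3% and 13.5% of all genes. On the CPM scale 9 of the 10 stood above 0 with a median of 0.53, which was 0.34 relative to all genes. With TMM factors the median was -0.01, 5 stood above 0, and 1 was higher and 1 lower, beside 14% and 37.3% of all genes. In what follows the levels of a gene are given in the order MM.1S monoculture, MM.1S coculture, HS-5 monoculture and HS-5 coculture. SRSF6, an SR protein that regulates alternative exons, stood at 50.3, 113, 136 and 108 CPM. It was lowest in MM.1S monoculture, with the other 3 groups close to each other, and its MM.1S ratio was 1.15 (0.88 to 1.41). SRSF1, the founding SR protein and a known proto-oncogene product, stood at 159, 283, 213 and 219 CPM. Its level was highest in MM.1S coculture cells, with a ratio of 0.83 (0.66 to 0.99) there and 0.04 (-0.11 to 0.18) in HS-5 cells.

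The other SR genes that passed the minimum mean stayed within 1.5-fold in MM.1S cells. SRSF3, the smallest SR protein and an export adaptor, stood at 299, 387, 420 and 385 CPM, and its MM.1S ratio was 0.37 (0.24 to 0.51). SRSF11, an SR-related protein, stood at 420, 619, 675 and 700 CPM (MM.1S ratio 0.56, 0.45 to 0.66), and SRSF10, a regulator of splicing in stress, at 165, 242, 184 and 255 CPM. The SRSF10 ratio was 0.55 (0.38 to 0.72) in MM.1S and 0.47 (0.33 to 0.61) in HS-5 cells, and 0.02 and 0.41 with TMM factors.

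SRSF2 was the SR gene that departed from the others. It codes for an SR protein of the nuclear speckles that is mutated in myeloid neoplasms, and stood at 427, 392, 214 and 207 CPM. Both MM.1S groups were above both HS-5 groups, coculture changed it little in either line (-0.12, -0.26 to 0.01, and -0.05, -0.20 to 0.10), and the HS-5 to MM.1S ratio between monocultures was -1.0 (-1.08 to -0.91). Its exons share 1015 bases with MFSD11 on the opposite strand, which held 661, 27, 101 and 48 UMIs in the 4 groups beside 4456, 521, 1313 and 514 UMIs of SRSF2, and the strand setting of the counting is not given in the sources used here. SRSF8, a close relative of SRSF2, stood at 70.9, 79.7, 47.2 and 41.1 CPM and was likewise lower in HS-5 monoculture, with a ratio of -0.58 (-0.77 to -0.38).

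Among the SR-like regulators, TRA2B, which promotes exon inclusion at GAA-rich enhancers, stood at 199, 256, 219 and 256 CPM, and its paralogue TRA2A at 85.9, 87.2, 171 and 130 CPM. Of the pair, TRA2A separated the lines on the CPM scale, with a ratio between monocultures of 0.99 (0.86 to 1.12), and 0.52 with TMM factors. The ratio of TRA2A in HS-5 cells after coculture was -0.40 (-0.58 to -0.22). SRRM1, a scaffold that joins SR proteins to the spliceosome, stood at 461, 773, 560 and 655 CPM and was called higher in MM.1S coculture cells (0.74, 0.65 to 0.84), with a ratio of 0.21 under TMM factors. SRRM2, the large scaffold of nuclear speckles, stood at 290, 363, 232 and 173 CPM, with ratios of 0.32 (0.18 to 0.46) in MM.1S and -0.42 (-0.58 to -0.27) in HS-5 cells. RBM39, a coactivator related to U2AF2, stood at 244, 347, 610 and 681 CPM and was called higher in HS-5 monoculture, with a ratio between monocultures of 1.32 (1.25 to 1.39).

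The hnRNP genes carried most of the calls in MM.1S cells. Of the 23 hnRNP genes and PTBP1, 18 passed, and on the CPM scale 16 stood above 0, 11 were called higher and 0 lower. The 11 called higher are 61.1% of those that passed, beside 30.3% of all genes. Their median was 0.68 on the CPM scale, 0.50 relative to all genes and 0.15 with TMM factors. With TMM factors 12 of 18 stood above 0, and 5 were called higher and 2 lower, beside 14% and 37.3% of all genes. HNRNPAB, an hnRNP closely related to HNRNPD, stood at 93.3, 447, 392 and 318 CPM. Its level in MM.1S monoculture was below that of each other group, and its MM.1S ratio of 2.25 (2.10 to 2.4) exceeded those of 98.4% of genes tested. In thinned cells 3.90% (3.32 to 4.55%) of MM.1S monoculture cells and 19.0% (16.8 to 21.4%) of MM.1S coculture cells held a UMI of HNRNPAB, and without thinning 19.3% and 27.5%. With free RNA of HS-5 cells subtracted the ratio was 2.26, and over all alternatives it ran from 1.72 to 2.84.

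HNRNPA1, the best known hnRNP and an antagonist of SRSF1 in splice site choice, stood at 396, 912, 688 and 863 CPM. It was higher after coculture in both lines, by 1.20 (1.11 to 1.30) in MM.1S and by 0.33 (0.25 to 0.40) in HS-5 cells. Its 67 pseudogenes held 454, 130, 426 and 260 UMIs, which is 10.1% to 12.1% of its own count in each group, and reads of near-identical copies can be split between them. HNRNPA2B1, which sorts RNA for transport as well as splicing, stood at 784, 1141, 1393 and 1465 CPM (0.54, 0.46 to 0.62, in MM.1S), and HNRNPA3 at 102, 186, 199 and 224 CPM (0.86, 0.66 to 1.06). The exons of HNRNPA2B1 share 140 bases with CBX3 on the opposite strand, which held 4948, 892, 5634 and 1935 UMIs. HNRNPA2B1 itself held 8183, 1518, 8559 and 3638 UMIs, and the strand setting is not known here either. HNRNPA0 stood at 106, 138, 189 and 157 CPM. Of the A/B genes 5 passed in MM.1S cells, with 3 called higher, beside 30.3% of all genes, and a median of 0.86. On the CPM scale the lowest of the 4 groups was MM.1S monoculture in all 5. With TMM factors the MM.1S ratios were -0.16 for HNRNPA0, 0.00 for HNRNPA2B1 and 0.33 for HNRNPA3. Those of HNRNPA1 and HNRNPAB were 0.67 and 1.72.

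HNRNPD and HNRNPDL, paralogues on chromosome 4, went apart in MM.1S cells. HNRNPD, also known as AUF1 for its part in the decay of AU-rich RNA, stood at 99.6, 330, 623 and 476 CPM, with ratios of 1.72 (1.55 to 1.88) in MM.1S and -0.39 (-0.48 to -0.29) in HS-5 cells. HNRNPDL stood at 352, 292, 484 and 542 CPM, with ratios of -0.27 (-0.42 to -0.12) and 0.16 (0.07 to 0.25). In each line the paralogues thus stood on opposite sides of 0 on the CPM scale, although the MM.1S ratio of HNRNPDL was 0.16 among cells with 400 to 1500 UMIs. The share of thinned MM.1S cells with a UMI of HNRNPD was 4.94% (4.29 to 5.66%) in monoculture and 14.5% (12.6 to 16.6%) in coculture, and that for HNRNPDL was 14.9% (13.8 to 16.1%) and 12.9% (11.1 to 15%).

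All 4 hnRNP F/H genes, which bind G-rich RNA, were called higher in MM.1S coculture cells, beside 30.3% of all genes. HNRNPF stood at 153, 339, 353 and 424 CPM with a ratio of 1.14 (0.99 to 1.29). HNRNPH1 stood at 241, 383, 321 and 287 CPM, HNRNPH2 at 68.7, 113, 80.9 and 80.1 CPM, and HNRNPH3 at 108, 165, 412 and 518 CPM, with ratios of 0.66 (0.52 to 0.80), 0.71 (0.45 to 0.96) and 0.60 (0.39 to 0.81). HNRNPF kept the fold under every alternative run for single genes, while those of HNRNPH1, HNRNPH2 and HNRNPH3 fell as low as 0.13, 0.18 and 0.07 with TMM factors. In HS-5 cells their ratios were small and of both signs, from -0.16 for HNRNPH1 to 0.33 for HNRNPH3.

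HNRNPM, an hnRNP that governs splicing in epithelial to mesenchymal transition, stood at 270, 711, 833 and 873 CPM, and its MM.1S ratio was 1.39 (1.29 to 1.5), with 0.07 (0.00 to 0.14) in HS-5 cells. HNRNPU, the scaffold attachment factor that binds chromatin and RNA, stood at 619, 1319, 1383 and 946 CPM. Its ratios were 1.09 (1.01 to 1.17) in MM.1S and -0.55 (-0.61 to -0.48) in HS-5 cells, so the level of MM.1S coculture cells came near that of HS-5 monoculture. On the log2 scale 27 of the 39 members that passed were nearer to HS-5 monoculture in MM.1S coculture than in MM.1S monoculture cells. So were 61.7% of all genes tested. HNRNPUL2 stood at 16.1, 78.9, 75.4 and 56.4 CPM and missed the minimum mean in MM.1S cells, where its ratio was 2.22 (1.87 to 2.57). HNRNPUL1 did not follow, at 62.8, 60.1, 88.7 and 52.0 CPM.

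HNRNPC, HNRNPK and HNRNPR stayed within 1.5-fold between coculture and monoculture in both lines on the CPM scale. HNRNPC, which packages nascent transcripts and blocks cryptic exons, stood at 277, 280, 327 and 409 CPM, with ratios of 0.02 (-0.14 to 0.17) in MM.1S and 0.32 (0.21 to 0.43) in HS-5 cells. HNRNPK, a binder of C-rich sequence, stood at 215, 264, 398 and 404 CPM and was called higher in HS-5 monoculture than in MM.1S monoculture (0.89, 0.80 to 0.97). That ratio was 0.41 with TMM factors and fell short of the fold in 3 of 12 alternatives. HNRNPR stood at 431, 488, 623 and 563 CPM. HNRNPCL1, a copy of HNRNPC, was at or below 0.192 CPM in each group, under the limit that a count of 0 allows (0.288 to 2.26 CPM).

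PTBP1, the polypyrimidine tract-binding protein that represses exons by competing with U2AF, was called in opposite directions in the lines. It stood at 52.3, 105, 221 and 126 CPM, so that the levels were farthest apart between the monocultures and close to each other in the coculture. The ratio was 0.99 (0.72 to 1.26) in MM.1S and -0.80 (-0.99 to -0.63) in HS-5 cells, and between monocultures HS-5 cells stood 2.06 (1.91 to 2.20) above MM.1S cells. The share of thinned cells with a UMI of PTBP1 was 2.86% (2.37 to 3.43%) and 4.84% (3.69 to 6.21%) in MM.1S cells and 12.6% (11.5 to 13.7%) and 7.52% (6.35 to 8.84%) in HS-5 cells. Free RNA subtraction left both ratios at 0.99 and -0.80, the HS-5 ratio was -0.77 or lower in every alternative, and the MM.1S ratio fell to 0.46 with TMM factors.

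The SF3A and SF3B genes did not move as a block, although their products form the U2 snRNP's branch point complexes. Of 9, 6 passed in MM.1S cells, with 1 called higher and 0 lower, beside 30.3% and 13.5% of all genes. Their median was -0.09, which was 0.17 over 8 genes without ribosomal protein and mitochondrial UMIs. The median was -0.27 relative to all genes, with 1 higher and 2 lower, beside 23.5% and 20.5% of all genes. With TMM factors the median was -0.62, with 1 higher and 3 lower, beside 14% and 37.3% of all genes. Among cells with at least 500 genes 8 passed, with a median of 0.40, 3 higher and 0 lower, beside 31.0% and 13.2% of all genes. SF3B2, which contacts RNA beside the branch point, stood at 415, 980, 665 and 517 CPM, with ratios of 1.24 (1.15 to 1.33) in MM.1S and -0.36 (-0.45 to -0.27) in HS-5 cells. SF3B4, SF3B5 and SF3B6, the smaller subunits, were the lowest of the 39 members that passed in MM.1S cells, with -0.42 (-0.79 to -0.07), -0.33 (-0.54 to -0.12) and -0.40 (-0.58 to -0.23), although that of SF3B4 was 0.08 among cells with 400 to 1500 UMIs. Their levels were 69.8, 51.9, 30.3 and 35.8 CPM for SF3B4, 190, 151, 250 and 229 CPM for SF3B5, and 297, 225, 240 and 374 CPM for SF3B6.

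Transcript length moved with the ratios of the short SF3B genes. The longest annotated transcripts of SF3B5 and SF3B6 have 693 and 770 bases, against a median of 3487 bases over members, and across all genes the Spearman correlation of length and ratio was 0.335 in MM.1S and -0.416 in HS-5 cells, given as a description since genes are not independent. Over the members that passed it was 0.0591 and -0.182. With the trend over length taken out, the MM.1S ratios of SF3B5 and SF3B6 were 0.06 and 0.00, that of SF3B4 was -0.26 and that of SF3B2 was 1.15. The same step took the HS-5 ratio of SF3B5 from -0.12 to -0.64, and the ratios between monocultures from 0.39 to 1.39 for SF3B5 and from -0.31 to 0.65 for SF3B6. SF3B1, the subunit that clamps the branch point, stood at 245, 273, 234 and 261 CPM, with ratios of 0.15 (-0.01 to 0.31) in MM.1S and 0.16 (0.02 to 0.29) in HS-5 cells.

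U2AF1, the subunit that reads the AG at the end of an intron, was almost uncounted, with 11, 6, 18 and 27 UMIs in the 4 groups. A near-identical copy on chromosome 21, U2AF1L5, held 1, 0, 2 and 2 UMIs, and 1 of the 12 transcripts of each gene has an identical sequence in the other. How reads that match both copies were counted is not given in the sources used here, and no fold is given. U2AF2, the larger subunit, stood at 17.1, 20.3, 15.8 and 22.1 CPM and missed the minimum mean in every comparison.

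In HS-5 cells the members differed little between coculture and monoculture. Of the 41 that passed, 1 (2.44%) was called higher, against 8.81% of the 3701 genes tested, and 2 (4.88%) were called lower, against 9.56%. The median was 0.04, with -0.02 over all genes, and counting intervals lay above 0 for 15 members, below 0 for 15 and held 0 for 11. The member called higher was SF3B6 (0.63, 0.51 to 0.75), which fell to 0.16 with the trend over length taken out. The members called lower were PTBP1 and HNRNPUL1, an hnRNP U-like protein linked to the DNA damage response, with -0.76 (-1.04 to -0.49). The hnRNP U genes stood below 0 together: HNRNPU was at -0.55, HNRNPUL2 at -0.41 (-0.69 to -0.14), and the median of the 3 that passed was -0.55. Their longest transcripts have 6858, 3555 and 5229 bases for HNRNPU, HNRNPUL1 and HNRNPUL2, and with the trend over length taken out the ratios were -0.37, -0.74 and -0.30.

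Between the monocultures, 33 of the 40 members that passed stood higher in HS-5 than in MM.1S cells on the CPM scale, but 24 did so relative to all genes and 22 with TMM factors. Of the 40 members that passed, 19 (47.5%) were called higher in HS-5, against 46.0% of the 3371 genes tested, and 2 (5.0%) were called lower, against 24.1%. The median of members was 0.51 and that of all genes 0.44. The 19 genes that passed among the hnRNP genes and PTBP1 all stood above 0, with a median of 0.83 and 12 called higher, but 16 of 19 did so relative to all genes and 14 of 19 with TMM factors. The highest ratios were those of HNRNPD (2.63, 2.54 to 2.73), HNRNPAB (2.06, 1.95 to 2.17), PTBP1, HNRNPH3 (1.92, 1.82 to 2.03) and HNRNPM (1.62, 1.56 to 1.69). SF3B4 (-1.18, -1.41 to -0.95) and SRSF2 were the members called lower in HS-5 cells. Relative to all genes 9 members were higher and 5 lower, beside 34.6% and 33.7% of all genes.

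The comparisons share groups of cells, so the ratios of a member are not independent of each other. The ratios of MM.1S coculture and of HS-5 monoculture are both taken over the same MM.1S monoculture cells.

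The members that missed the minimum mean in MM.1S cells were SRSF9, SRSF12, HNRNPA1L2, HNRNPCL1, HNRNPL, HNRNPLL, HNRNPUL2, HNRNPUL2-BSCL2, SF3A1, SF3A2, SF3B3, U2AF1 and U2AF2, 13 genes in all. In HS-5 cells 11 missed it and between the monocultures 12. HNRNPUL2-BSCL2, a readthrough transcript, held 2 and 1 UMIs in the monocultures and shares 2391 exon bases with HNRNPUL2. SF3A2 held at most 11.6 CPM and shares 398 exon bases with PLEKHJ1 on the opposite strand. In all, the exons of 16 members overlap those of another gene, 11 of them on the opposite strand.

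Other genes of the splicing pathway were counted from lists, to be read beside the 30.3% of all genes called higher and 13.5% called lower in MM.1S cells. Of 63 core spliceosome genes 42 passed in MM.1S cells, with 16 higher (38.1%), 3 lower and a median of 0.30. The exon junction complex, deposited upstream of spliced junctions, had 9 genes passing, with 3 higher, 0 lower and a median of 0.16. Of the kinases, phosphatases and importer that set the phosphorylation and nuclear entry of SR proteins 7 passed, with 2 higher, 0 lower and a median of 0.39. The list of 48 other RNA-binding regulators had the highest median of these 4 lists, with 24 of 35 higher (68.6%), 0 lower and a median of 0.72. The medians in HS-5 cells were 0.02, 0.22, -0.03 and -0.20 in the same order. There the regulators had 0 genes higher and 4 lower, beside 8.81% and 9.56% of all genes. Between the monocultures the medians were 0.43, 0.07, 0.06 and 1.07. The core spliceosome and exon junction lists thus lay close to all genes in MM.1S cells (0.12 and -0.02 from their median), and the other regulators stood 0.53 above it. The nuclear RNAs MALAT1 and NEAT1, which mark speckles and paraspeckles, had ratios of 0.25 and 2.13 in MM.1S and -0.46 and -0.35 in HS-5 cells, in that order.

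Every value above is a share of the RNA captured from a group of cells. More RNA of a gene per cell and less RNA of other genes give the same ratio and cannot be told apart here. The fall in ribosomal protein and mitochondrial shares in MM.1S coculture cells moved with the ratios, and its part in them was not tested.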

How the data were processed

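Counts of UMIs per gene and cell barcode were deposited by the authors as whole numbers without normalization for 3 Drop-seq libraries. The submitters' processing notes name GRCh38, Cell Ranger 3.0.2, UMI-tools 1.0.0, STAR 2.5.3a, featureCounts 1.6.4 and SAMtools 1.9 without their roles, and the methods name Seurat. The annotation release, strand setting and choice of barcodes are not given in the sources used here.

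Cells with at least 200 genes were kept. Line-specific genes had at least 50 CPM in their own monoculture and 50 times the CPM of the other, and cells of the coculture in which HS-5 genes gave between 0.2 and 0.8 of these UMIs were left out as doublets. For each line in each library the UMIs of all cells were added up and expressed as CPM, and log2 ratios took a pseudocount of 1 CPM. Levels have exact Poisson intervals, shares of cells exact binomial intervals, and ratios exact conditional binomial intervals, at 95%. Ratios and intervals were tested on simulated data. Gene models came from GENCODE release 29, promoters from RefSeq. Python 3.11.15, numpy 2.4.6, scipy 1.17.1, statsmodels 0.14.6 and edgeR 4.0.16 were used.

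Genes named by rule were the 5 highest and 5 lowest members per comparison, the 2 with the most UMIs per role and any called in opposite directions (33 genes), and the 7 other called members were named after their values were seen. The members and lists were chosen with earlier results of these data known. Other settings tried, 17 listed with the design and 1 chosen after seeing the data, changed cells, scaling, filters, free RNA, length or pseudogenes.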

Additional observations from a re-analysis of the deposited data

Results flagged for a closer look

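PTBP1 was picked out because its level differed in opposite directions in the lines after coculture. The log2 ratio in MM.1S cells minus that in HS-5 cells was 1.79, from 0.99 in MM.1S and -0.80 in HS-5 cells. With 1 library per condition the difference was not tested. Under the alternatives run for single genes the MM.1S ratio lay between 0.46 and 1.56 and the HS-5 ratio between -1.02 and -0.77, so the signs stayed apart in each of them.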

How the results depend on the processing

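Values are given in the order MM.1S cells, HS-5 cells, and HS-5 over MM.1S monoculture. The members' median log2 ratios were 0.53, 0.04 and 0.51, with 15, 1 and 19 members higher and 0, 2 and 2 lower. Of all genes 30.3%, 8.81% and 46.0% were higher and 13.5%, 9.56% and 24.1% lower. TMM factors gave medians of 0.00, -0.02 and 0.04. With them 7, 0 and 9 members were higher, beside 14%, 6.92% and 34.1% of all genes. Lower were 6, 3 and 5 members, beside 37.3%, 11.7% and 34.4%. TMM over genes of at least 10 CPM, added after seeing the data, gave 0.26, 0.07 and -0.07, the last with its sign turned. Here 10, 1 and 8 members were higher, beside 20.5%, 9.89% and 31.6% of all genes. Lower were 3, 2 and 7 members, beside 24.4%, 8.27% and 36.9%. Centring on all genes gave 0.35, 0.06 and 0.07. After it 11, 1 and 9 members were higher, beside 23.5%, 9.40% and 34.6% of all genes. Lower were 2, 2 and 5 members, beside 20.5%, 8.81% and 33.7%. Without ribosomal protein and mitochondrial UMIs the medians were 0.37, 0.05 and 0.26. In this setting 13, 1 and 14 members were higher, beside 24.1%, 8.88% and 38.1% of all genes. Lower were 1, 2 and 4 members, beside 20%, 9.1% and 30.5%. Cells with 400 to 1500 UMIs gave 0.70, 0.05 and 0.73. Among them 23, 2 and 25 members were higher, beside 35.8%, 17.3% and 50.2% of all genes. Lower were 0, 4 and 3 members, beside 12.5%, 16.7% and 25.4%. Cells with 200 to 2500 genes and under 5% mitochondrial UMIs had 2 higher and 5 lower in HS-5, beside 14.5% and 14.6% of all genes. Equal weight per cell had 2 and 4 in HS-5, beside 14.8% and 14.2%, with a median of 0.75 between monocultures. A mean of at least 10 CPM left 2 higher in HS-5, beside 7.84% of all genes. A mean of at least 100 CPM left 1 lower in HS-5 and 1 lower between monocultures, beside 9.61% and 26.4%. No filter gave 1 lower in MM.1S and 3 higher in HS-5, beside 14.8% and 11.1%. With the length trend removed 0 were higher in HS-5 and 5 lower between monocultures, beside 4.46% and 21.5% of all genes. Beyond the arithmetic of each setting the cause was not tested. All deposited barcodes, cells of at least 500 genes, stricter line-specific genes, narrower share limits, a pseudocount of 5 CPM, free RNA subtraction and added pseudogene UMIs left every median and count named here within its counting bounds or 1.5-fold. Of 39 calls on single members, 19 kept the fold in every alternative, 20 did not, and 0 changed sign. Depth limits genes under 50 CPM, and a count of 0 allows up to 2.26 CPM in MM.1S coculture cells. No paired analysis was possible because each condition has 1 library.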
